A study of Mus musculus with 18 samples.

Results

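The Lin28 axis is a small set of genes known for activity in the embryo and again in some tumours, though not all are silent in adult tissue. It was taken here as 7 genes, Lin28a, Lin28b, Hmga1, Hmga2, Igf2bp1, Igf2bp2 and Igf2bp3, found by their names in the array annotation among 19708 named genes. They were covered by 15 of 41109 probes. Lin28a is listed under its older symbol, Lin28, in the array files. Gene expression was measured on 18 one-colour mouse microarrays in 6 groups of 3, all from C57BL/6 material, in a study that made intestinal progenitors from fibroblasts. The iISC group holds budding organoids that came from induced intestinal stem cells, and the crypt group holds budding organoids from adult intestinal crypts. The iFIPC group holds mixed spheroids and budding organoids from induced fetal intestinal progenitors, and the FI group holds the same kind of mixture from fetal intestinal progenitors. The iHep group holds hepatocyte-like cells induced from mouse embryonic fibroblasts, with a different unexplained code for each sample, and the MEF group holds embryonic fibroblasts. The labels do not name the factors used for conversion, and they do not say whether samples of a group came from separate cultures or animals, so p-values measure only the spread between these samples. MEF arrays 2 and 3 were nearly identical and were averaged, so 17 samples entered the fits, 2 of them MEF.

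Lin28a and Lin28b are RNA-binding proteins that block the maturation of the let-7 microRNA family. Mature let-7 represses messages that carry matching sites, and Hmga2, Igf2bp1, Igf2bp2 and Igf2bp3 are among its known targets in mammals, so Lin28 activity is known to keep these genes on in fetal cells. Hmga1 and Hmga2 are chromatin proteins that bind AT-rich DNA. The Igf2bp proteins bind messages such as those of Igf2, H19 and Myc and alter their stability and translation. In the intestine, Lin28b and its targets are known as genes of the fetal epithelium.

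Mature let-7 was not measured on these arrays, but its seed is what links the axis, and RefSeq (GRCm38.p6) gives it. The seed, bases 2 to 8 counted from the 5′ end, is in capitals in 3 members of the family, and 11 mature mouse microRNA names in that table share it. The matching site is CTACCTC, which pairs with all 7 bases of the seed.
let-7a-5p, read from Mirlet7a-1 on chromosome 13: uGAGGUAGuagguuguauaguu
let-7g-5p, from Mirlet7g on chromosome 9: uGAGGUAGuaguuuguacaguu
miR-98-5p, from Mir98 on chromosome X: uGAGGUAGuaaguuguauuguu

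The 60-base array probes are stretches of the messages themselves, and the site could be looked for in them. CTACCTC, on the strand of the message as printed in the array files, was present in 2 of the 15 probes of the 7 genes and in 126 of all 41109 probes (0.307%). These 2 probes are the brightest Hmga2 probe and the second Igf2bp1 probe. The part of each that holds the match is shown with the 7 matching bases in capitals. A match is a description of the letters, not evidence that the site was used, and no match says only that the letters are not in these 60 bases.
Hmga2 probe, chr10:119798739-119798798 on mm9, match from base 45: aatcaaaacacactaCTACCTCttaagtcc
Igf2bp1 probe, chr11:95819412-95819471 on mm9, match from base 11: tggttttaatCTACCTCttagcaaaacaat

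Each gene is given below by the probe with the highest mean level over all samples. On mm9, these lie at chr4:133559527-133559586 for Lin28a, chr10:45096968-45097027 for Lin28b, chr17:27700543-27700602 for Hmga1 and chr11:95824526-95824585 for Igf2bp1. Those of Igf2bp2 and Igf2bp3 lie at chr16:22059260-22059319 and chr6:49035710-49035769. An annotation of that build was not used, so exons and UTRs are not assigned. A level is the log2 processed signal minus the 75th percentile of the same array, so 0 is the 75th percentile and each unit is a doubling. Levels were compared between samples for the same probe and never between probes. Changes are log2 differences with standard errors from limma fits across all tested probes, with Benjamini-Hochberg adjusted p-values. A change was called at an adjusted p under 0.05 and a log2 size of at least 1.

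The array files span a 75th percentile intensity of 714.1 to 1484.4, and the share of probes well above background ran from 56.15 to 68.67%. Organoid arrays were extracted with another software version and scanner than MEF and iHep arrays, so array set and cell type cannot be told apart. The spike-in controls had median levels of -1.435 to -0.945 on organoid arrays and -0.370 to 0.006 on the MEF and iHep arrays. All 9 epithelial markers were well above background in every organoid and iHep sample. In MEF, Cdh1, Cdx2, Epcam and Vil1 were not.

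Lin28a was not detected. Its only probe was well above background on 0 of 18 arrays, with levels of -9.14 to -7.85 that carry no order. Lin28b, the paralogue known for its role in fetal intestine, was at the edge of detection. Its brightest probe was well above background on 4 of 18 arrays, FI samples 2 and 3 and MEF arrays 2 and 3. The Lin28b levels there were -5.26 and -3.58 in the FI samples and -4.60 and -4.72 on the MEF arrays. FI sample 1 (-8.46) and MEF array 1 (-6.95) were not well above background, nor was any iISC, crypt, iFIPC or iHep sample. Of the other Lin28b probes, 1 was above background on no array and 1 only on MEF array 1. Lin28b therefore entered no test, and whether FI and iFIPC organoids differ in it was not detectable at this signal.

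Hmga1 was well above background in every sample. RefSeq lists a near copy, Hmga1b, whose signal cannot be told apart from Hmga1 here. Its levels were 7.42, 7.51 and 7.41 in iISC organoids, against 7.80, 7.63 and 7.60 in crypt organoids. They were 7.19, 7.29 and 7.35 in iFIPC organoids, against 7.78, 7.79 and 7.88 in FI organoids. Both induced kinds lay below their native counterpart without overlap, by a small amount. The change was -0.23 ± 0.10 for iISC against crypt (adjusted p = 0.199) and -0.54 ± 0.10 for iFIPC against FI (adjusted p = 0.00619), which is under the size for a call. The iHep samples had 5.66, 5.87 and 6.26, against 6.96, 6.85 and 6.81 on the MEF arrays. Hmga1 was thus lowest in iHep, 0.97 ± 0.15 log2 units below MEF (change -0.97, adjusted p = 0.000232), just short of the size for a call.

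Hmga2 was highest in MEF and, among organoids, in FI. Its levels were 0.61, 0.81 and 0.21 in iISC organoids and 0.95, 0.44 and 0.18 in crypt organoids. They were -0.42, 0.49 and -0.31 in iFIPC organoids, against 2.47, 2.11 and 2.17 in FI organoids. Every FI sample lay above every other organoid sample, and the iISC, crypt and iFIPC groups overlapped. In a bulk sample, fewer cells of a kind and less RNA per cell cannot be told apart. The iHep samples had 2.09, 1.49 and 1.13, and the MEF arrays, the highest of all, had 4.15, 4.38 and 4.38. The second Hmga2 probe ran in parallel, and the third was well above background on 12 of 18 arrays.

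Igf2bp1 was detected by its brightest probe in all samples of both fetal kinds of organoid. In iISC organoids its levels were -8.50, -4.86 and -6.95, of which sample 2 alone was well above background. In crypt organoids they were -8.83, -7.42 and -8.65, with none well above background. The iFIPC organoids had -3.16, -3.02 and -0.32, against -4.07, -3.76 and -2.73 in FI organoids, all well above background. Both fetal kinds thus held detectable Igf2bp1 and overlapped each other, while the adult kinds were at or near background. The iHep samples had 0.81, 1.03 and 1.33, against 1.45, 1.74 and 1.72 on the MEF arrays. The second Igf2bp1 probe was also well above background on all iFIPC and FI arrays. The third was so on 2 of 3 iFIPC and 1 of 3 FI arrays. On iISC arrays, the second and the third were each well above background on 0 of 3.

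Igf2bp2, the member that is best known from adult tissues, was well above background on every array. Its levels were 2.17, 2.13 and 2.07 in iISC organoids and 2.49, 2.00 and 2.02 in crypt organoids. They were 0.68, 1.30 and 0.60 in iFIPC organoids, against 2.61, 2.76 and 2.39 in FI organoids. The iFIPC samples were the lowest of all 18 arrays for this probe. The iHep samples had 1.59, 1.35 and 1.67, against 1.86, 1.79 and 1.68 on the MEF arrays.

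Igf2bp3 was highest in FI organoids. Its levels were -2.06, -2.59 and -0.56 in iISC organoids, against 1.06, -0.34 and -0.18 in crypt organoids. They were -1.51, -0.59 and -1.21 in iFIPC organoids, against 1.22, 1.86 and 1.59 in FI organoids. The induced kinds both lay below their native counterpart without overlap, and the spread within the iISC and crypt groups was wide. The iHep samples had 0.82, 0.69 and 1.06, against 1.09, 1.02 and 1.03 on the MEF arrays, and these groups overlapped.

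**Figure D1:**
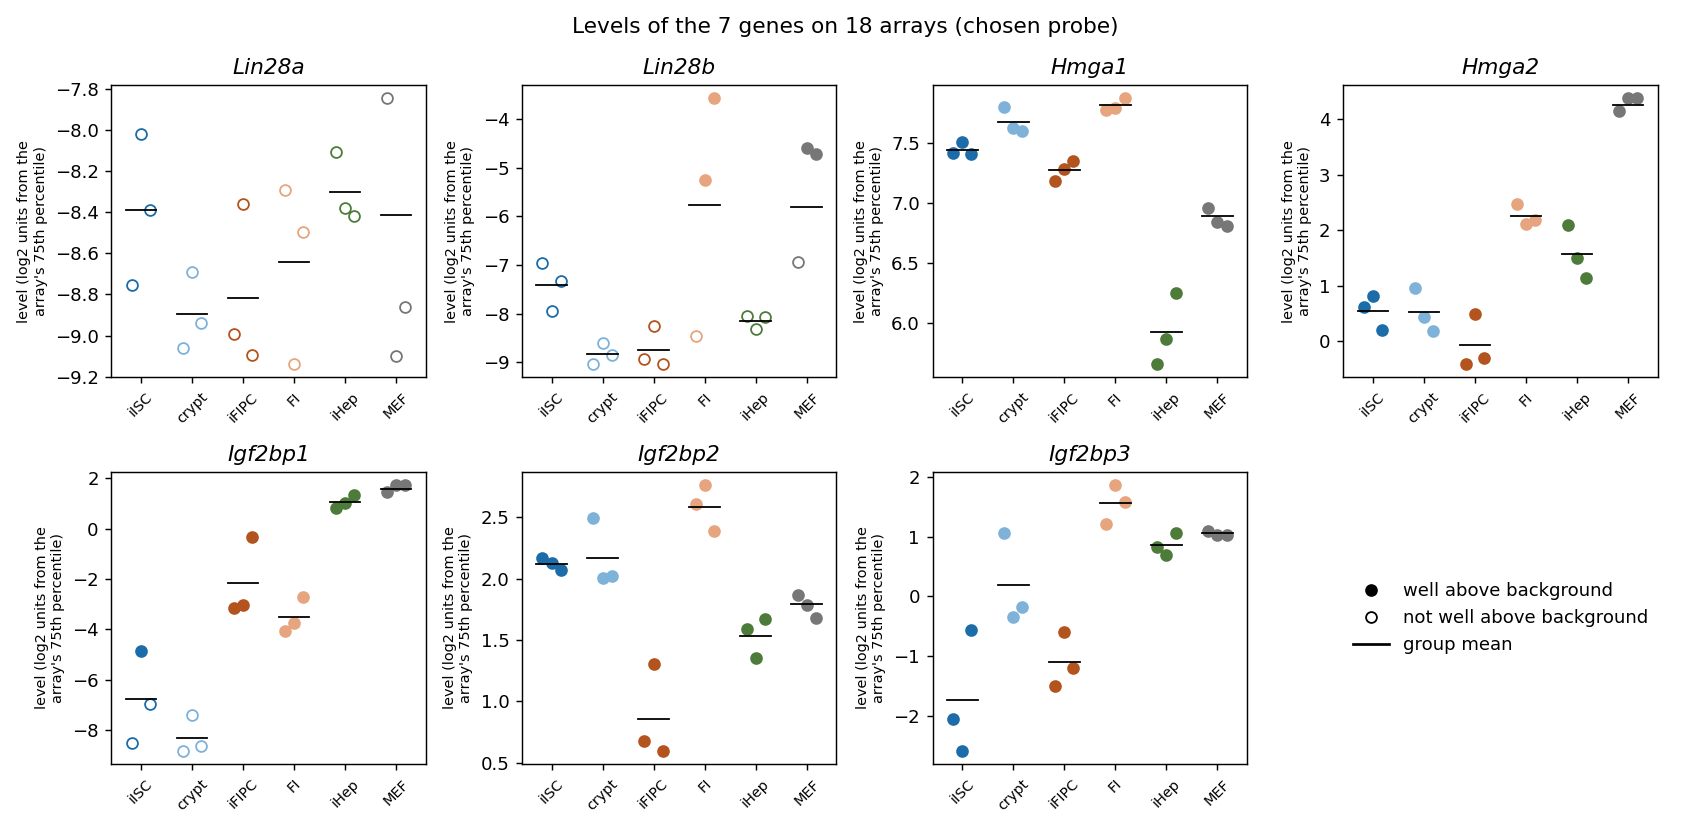
Levels of the 7 genes on 18 arrays, with a panel per gene. The y axis is the level in log2 units from the 75th percentile of the array, with its own range in each panel, and the x axis gives the group. Filled points are well above background, open points are not, and the bar is the group mean (MEF arrays 2 and 3 averaged first). Lin28a is open throughout, Hmga2 is highest in MEF and next in FI, and Igf2bp1 is filled in all iFIPC and FI samples but in only 1 iISC sample and no crypt sample.

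The order of the group means, from high to low, was MEF, FI, iHep, iISC, crypt and iFIPC for Hmga2. Neighbours in that order did not overlap except iISC with crypt and crypt with iFIPC. For Igf2bp1 it was MEF, iHep, iFIPC, FI, iISC and crypt, with overlap between iFIPC and FI and between iISC and crypt. For Igf2bp2 it was FI, crypt, iISC, MEF, iHep and iFIPC, with overlap of FI with crypt and crypt with iISC. For Igf2bp3 it was FI, MEF, iHep, crypt, iFIPC and iISC, and MEF overlapped iHep, iHep overlapped crypt and iFIPC overlapped iISC. For Hmga1 it was FI, crypt, iISC, iFIPC, MEF and iHep, and the neighbours FI and crypt alone overlapped. No 2 of the detected members had the same order, and FI came at the top in 3 of them.

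The conversion to a fetal progenitor was addressed by iFIPC against FI organoids. Hmga2, Igf2bp2 and Igf2bp3 were lower in iFIPC organoids, and Igf2bp1 was not called. Of the 5 genes tested, 0 were called higher and 3 lower, where 9.3% of all probes tested were called (4.59% higher and 4.71% lower). Hmga2 fell by 2.33 log2 units (change -2.33 ± 0.28, adjusted p = 0.00106), which is 5.04-fold lower. Igf2bp2 changed by -1.73 ± 0.20 (adjusted p = 0.00104), or 3.31-fold lower, and Igf2bp3 by -2.66 ± 0.53 (adjusted p = 0.00894), or 6.31-fold lower. All 3 Igf2bp3 probes gave the same call, with changes of -2.67 to -2.64. Of the 3 Hmga2 probes, 2 were called, with changes of -2.35 to -1.79 over the 3. Igf2bp1 changed by 1.35 ± 0.97 (adjusted p = 0.333), and by 0.43 without iFIPC sample 3. Slides held these groups apart, since all FI arrays share a slide that holds no iFIPC array. With the slide as a term, Igf2bp2 alone was called, while Hmga2 stood at -1.98 (adjusted p = 0.0562) and Igf2bp3 at -1.59 (adjusted p = 0.448). Crypt sample 1 is the only array of another group on the FI slide, so the slide term here depends on that array.

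The adult conversion was addressed by iISC against crypt organoids, and here the genes lay closer together. limma called 0 of the 4 genes tested, where 2.61% of all probes tested were called (1.42% higher and 1.19% lower), and 2 of the 4 had an unadjusted p under 0.05. The change was 0.02 ± 0.28 for Hmga2 (adjusted p = 0.974) and -0.05 ± 0.20 for Igf2bp2 (adjusted p = 0.910). Igf2bp3 stood out in size, with a change of -1.92 ± 0.52 (adjusted p = 0.0733) and iISC samples all below crypt samples. Without iISC sample 3, the sample nearest to the crypt group, the Igf2bp3 change was -2.51 (adjusted p = 0.0269). Igf2bp1 was not tested in this comparison, since neither group was well above background throughout. No slide holds both groups.

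The native adult and fetal organoids, crypt against FI, differed in Hmga2 and Igf2bp1. Of the 5 genes tested, 2 were called, both lower in crypt organoids, where 7.33% of all probes tested were called (2.55% higher and 4.78% lower). Hmga2 changed by -1.73 ± 0.28 (adjusted p = 0.00443), or 3.32-fold lower. Of the 3 Hmga2 probes, 2 were called, with changes of -1.73 to -0.88 over the 3. Igf2bp1 was at least 8.63-fold lower in crypt organoids (adjusted p = 0.0118), a bound because no crypt array was well above background. For the bound, each crypt array counts as the dimmest probe that it still measured well above background. Here and for the bounds below, the adjusted p is that of the fitted change, which used the signal at background, and not of the bound. Igf2bp3 changed by -1.37 ± 0.53 (adjusted p = 0.114), with crypt samples all below FI samples. Without crypt sample 1, it was -1.81 (adjusted p = 0.0403). Hmga1 (-0.14 ± 0.10, adjusted p = 0.382) and Igf2bp2 (-0.42 ± 0.20, adjusted p = 0.205) were not called. On the 1 slide that holds both groups, crypt sample 1 differed from the mean of the 3 FI samples by -1.30 for Hmga2 and lay below all 3. For Igf2bp1 it was not well above background, while all 3 FI samples were. The slide term rests on this same comparison of crypt sample 1 with FI, so it is no separate check. With the slide as a term, the adjusted p was 0.0501 for Hmga2 and 0.130 for Igf2bp1. Normexp background correction with quantile normalization gave -1.13 for Igf2bp1 (adjusted p = 0.149).

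The induced adult and fetal organoids, iISC against iFIPC, differed in Igf2bp1 and Igf2bp2 but in opposite directions. Of the 5 genes tested, 1 was called higher and 1 lower in iISC organoids, where 6.62% of all probes tested were called (2.68% higher and 3.94% lower). Igf2bp1 changed by -4.60 ± 0.97 (adjusted p = 0.0159), a size that rests partly on background, since 1 of 3 iISC arrays was well above it. Without iFIPC sample 3, the Igf2bp1 change was -3.68 (adjusted p = 0.0458). Normexp with quantile normalization gave -1.86 (adjusted p = 0.0362) for it. Igf2bp2 changed by 1.26 ± 0.20 (adjusted p = 0.00489), or 2.40-fold higher in iISC organoids. The change was 0.17 ± 0.09 for Hmga1 (adjusted p = 0.286), 0.62 ± 0.28 for Hmga2 (adjusted p = 0.175) and -0.64 ± 0.53 for Igf2bp3 (adjusted p = 0.476). On the slide that holds the 3 iISC arrays and iFIPC sample 2, the difference was -3.75 for Igf2bp1, again partly at background, and 0.82 for Igf2bp2, with iFIPC sample 2 outside the iISC range for both. The slide as a term gave these same differences, so it is no separate check, and neither was called (adjusted p = 0.286 for Igf2bp1 and 0.0535 for Igf2bp2). With only the 2 groups in the fit, Igf2bp1 had an adjusted p of 0.0814.

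**Figure D2:**
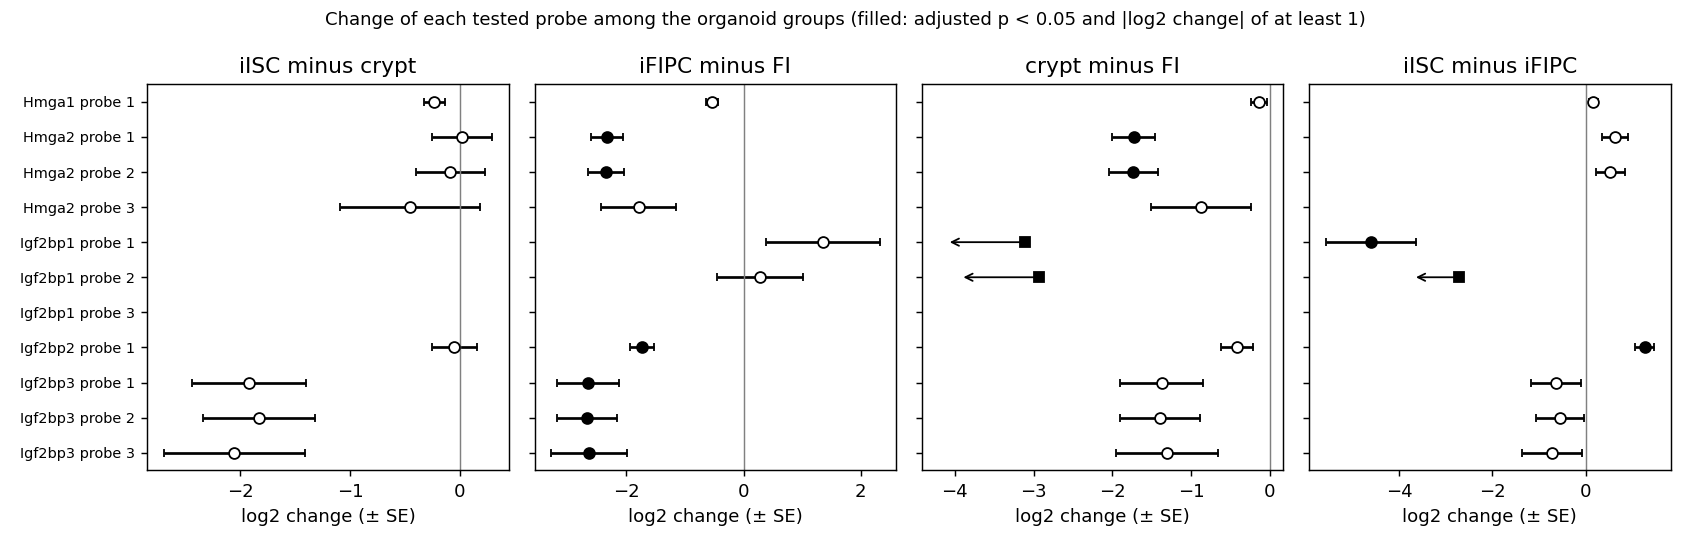
Log2 change of every tested probe of the 5 detected genes in 4 comparisons among organoids, each with its own x range. The x axis is the log2 change with its standard error, rows are probes, filled points were called and an empty row was not tested. Squares with an arrow are bounds, where no array of the dimmer group was well above background, and the true change lies further along the arrow. Probes of the same gene lie on the same side of 0 in the panels for iFIPC minus FI, crypt minus FI and iISC minus iFIPC. In iISC minus crypt, the Hmga2 probes fall on both sides of 0, between -0.45 and 0.02.

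Whether the adult against fetal difference was of the same size in induced and native organoids was tested as the iISC against iFIPC change minus the crypt against FI change. The same value is the iISC against crypt change minus the iFIPC against FI change, so it is not a result apart from those comparisons. Of the 5 genes tested, 2 were called, both higher, where 4.57% of all probes tested were called (2.76% higher and 1.81% lower). For Hmga2 the induced change was 0.62 and the native change -1.73, and their difference was 2.35 ± 0.39 (adjusted p = 0.0141). For Igf2bp2 the induced change was 1.26 and the native change -0.42, and their difference was 1.68 ± 0.29 (adjusted p = 0.0153). The induced change of Hmga2 and the native change of Igf2bp2 were not called on their own. Read the other way, iISC against crypt gave 0.02 for Hmga2 and -0.05 for Igf2bp2, and iFIPC against FI gave -2.33 and -1.73. For Igf2bp1 no difference can be read, since the native change is only a bound (at least 8.63-fold lower in crypt) and the induced change of -4.60 rests partly on background. Its fitted difference of 0.18 ± 1.37 (adjusted p = 0.950) was set by background signal and turned to -0.73 under normexp with quantile normalization. Igf2bp3 (0.74 ± 0.75, adjusted p = 0.570) and Hmga1 (0.30 ± 0.14, adjusted p = 0.194) were not called. With the slide as a term, Hmga2 stood at 1.36 (adjusted p = 0.220) and Igf2bp2 at 0.91 (adjusted p = 0.202).

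**Figure D3:**
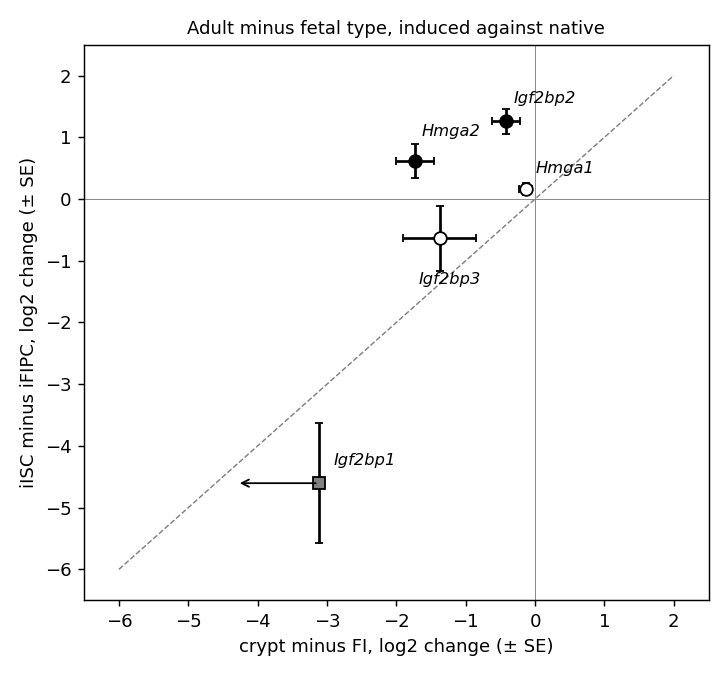
Adult minus fetal log2 change of 5 genes, with iISC minus iFIPC on the y axis and crypt minus FI on the x axis. Bars are standard errors, the dashed line marks equal change, and filled points are the genes called for a difference between the changes. Hmga2 and Igf2bp2 lie above the line with positive induced and negative native changes. The grey square for Igf2bp1 is a bound of 8.63-fold on the x axis (the true change lies further along the arrow), and its y value rests partly on background, so its place against the line is not known.

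Against the fibroblasts, 3 members were lower in both induced organoids. Of the 5 genes tested, 0 were called higher and 3 lower in iISC organoids against MEF, where 46.3% of all probes tested were called (20.5% higher and 25.9% lower). Of the 5 tested in iFIPC organoids against MEF, 0 were higher and 3 lower, where 41.3% were called (18.2% higher and 23.1% lower). In iISC organoids Hmga2 changed by -3.72 ± 0.33 (adjusted p = 4.35e-07), Igf2bp1 by -8.36 ± 0.95 (adjusted p = 5.05e-06) and Igf2bp3 by -2.79 ± 0.52 (adjusted p = 0.000363). The Igf2bp1 size rests partly on background, with 1 of 3 iISC arrays well above it, and was -5.20 under normexp with quantile normalization (adjusted p = 6.47e-07). In iFIPC organoids the changes were -4.34 ± 0.33 for Hmga2 (adjusted p = 1.33e-07), -3.76 ± 0.95 for Igf2bp1 (adjusted p = 0.00406) and -2.16 ± 0.52 for Igf2bp3 (adjusted p = 0.00289). Igf2bp2 was close to MEF in iISC organoids (0.32 ± 0.21, adjusted p = 0.195). In iFIPC organoids Igf2bp2 changed by -0.94 ± 0.21 (adjusted p = 0.00197), under the size for a call. Without iFIPC sample 2 it stood at -1.16 (adjusted p = 0.000248), which would be a call. Hmga1 changed by 0.55 ± 0.15 in iISC organoids (adjusted p = 0.00612) and by 0.38 ± 0.15 in iFIPC organoids (adjusted p = 0.0438), both under that size. The 2 comparisons share the MEF samples, and the array set goes with them.

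The iHep cells were made from MEF as well, and they share an array set with them. Hmga2 alone was called among the 5 genes tested, lower in iHep, where 27.1% of all probes tested were called (12.1% higher and 14.9% lower). It changed by -2.69 ± 0.33 (adjusted p = 2.7e-05), and by -2.58 on the slide that holds the iHep arrays and MEF array 1. The changes of Igf2bp1 (-0.53 ± 0.95, adjusted p = 0.677), Igf2bp2 (-0.26 ± 0.21, adjusted p = 0.343) and Igf2bp3 (-0.20 ± 0.52, adjusted p = 0.776) were not called. Hmga1 stood at -1.03 on that slide. The slide as a term gave the same value, since it rests on the same arrays. Hmga1 was called with the slide as a term, with the replicate number as a block, and without iHep sample 3. Without the averaged MEF arrays, which leaves MEF array 1 alone, Hmga1 also stood at -1.03. In iFIPC against iHep, Hmga1 was higher (1.35 ± 0.14, adjusted p = 3.39e-06), and Hmga2 (-1.65 ± 0.29, adjusted p = 0.00037), Igf2bp1 (-3.22 ± 0.85, adjusted p = 0.00575) and Igf2bp3 (-1.96 ± 0.47, adjusted p = 0.00294) were lower. That is 4 of the 5 genes tested, where 33.2% of all probes tested were called (15.1% higher and 18.1% lower).

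The fibroblast markers also differed between groups. The summed level of 12 fibroblast markers, in multiples of the 75th percentile, was 1.17 to 1.30 in iISC, 1.25 to 1.52 in crypt, 2.68 to 10.2 in iFIPC, 0.80 to 1.82 in FI, 103 to 221 in iHep and 1130 to 1180 in MEF. The sum adds linear signals, so the largest signal weighs most. In iFIPC and FI organoids that was Vim, with mean levels of 1.70 and -0.35. All 12 were well above background on every MEF array, 8 on every iFIPC array and 3 on every FI array. Dcn, Lum, Pdgfra and Twist1 were above background in no FI sample. Within iFIPC, Igf2bp1 was highest in sample 3 (-0.32), whose fibroblast sum was the lowest (2.68). Samples 1 and 2, with sums of 4.73 and 10.2, had Igf2bp1 levels of -3.16 and -3.02. Hmga2 (0.49), Igf2bp2 (1.30) and Igf2bp3 (-0.59) were instead highest within iFIPC in sample 2, whose fibroblast sum was the highest. Sample 2 was also on another slide than iFIPC samples 1 and 3. The part of fibroblast RNA in the iFIPC levels of Igf2bp1, Hmga2, Igf2bp2 and Igf2bp3 was not tested.

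**Figure D4:**
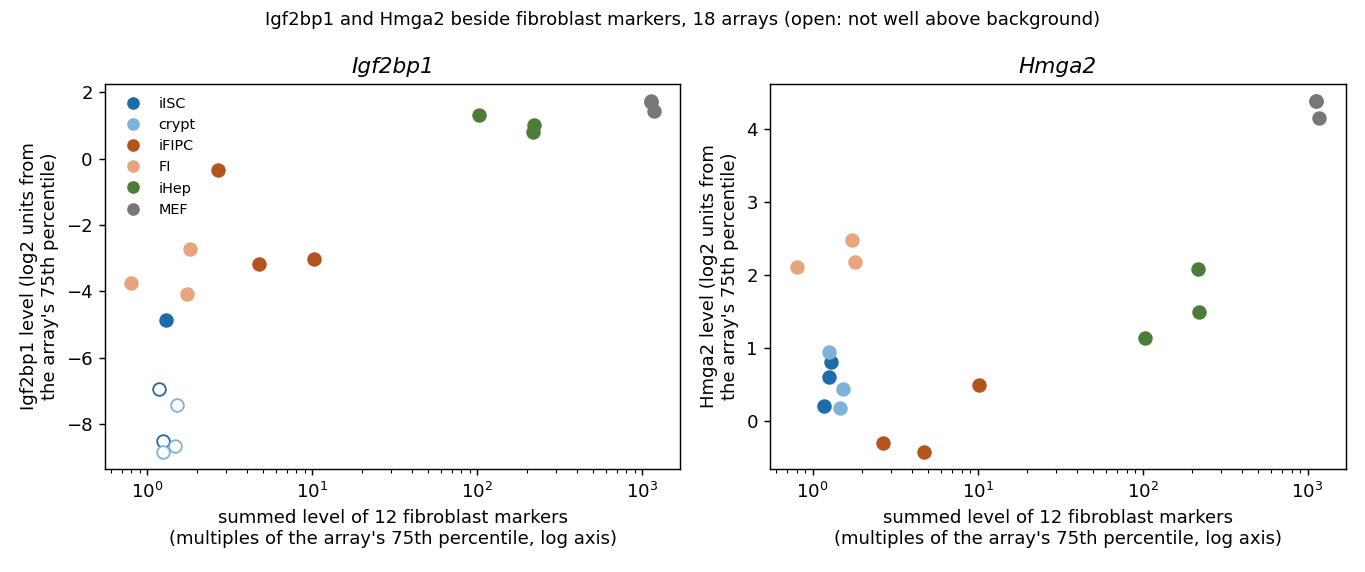
Levels of Igf2bp1 and Hmga2 on 18 arrays against the summed level of 12 fibroblast markers on a log axis. Vim weighs most in the sum in iFIPC and FI organoids. The y axis is the level in log2 units from the 75th percentile of the array, colours give the group and open points are not well above background. The iFIPC samples lie between 2.68 and 10.2 on the x axis, to the right of all other organoid samples, and 2 of the 3 have the lowest Hmga2 levels of all.

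The summed level of 10 cycling markers was 93.1 to 124 in iISC, 129 to 130 in crypt, 91.9 to 130 in iFIPC, 124 to 161 in FI, 44.2 to 63.2 in iHep and 41.8 to 46.5 in MEF. Hmga1, a gene known to be high in dividing cells, was likewise higher in organoids than in iHep and MEF, which are of another array set. Its changes against MEF (0.55 in iISC and 0.38 in iFIPC) were under the size for a call. Within the other array set, Hmga1 was lower in iHep than in MEF, while the cycling sums of iHep and MEF overlapped. The part of cycling cells was not tested. The 5 immune markers summed to 0.287 to 1.02 in iFIPC, 0.147 to 0.186 in FI and 0.128 to 0.254 in iISC and crypt samples. The 7 hepatocyte markers summed to 302 to 1220 in iHep and at most 27 in other groups. Smooth muscle markers (302 to 409) and endothelial markers (0.797 to 1.46) were highest in MEF, against 8.71 to 13.8 and 0.0224 to 0.044 in the organoids.

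Of 19 genes tested that process or degrade let-7, 0 were called in iFIPC against FI, iISC against crypt and iISC against iFIPC, where 9.3%, 2.61% and 6.62% of all probes were called. In crypt against FI, 1 of the 19 was lower, where 4.78% of all probes were lower. That gene, Zcchc11, the terminal uridylyltransferase that works with Lin28a, had levels of -1.77, -0.79 and -0.62 in crypt organoids, against 0.85, 0.42 and 0.82 in FI organoids. The groups did not overlap, and Zcchc11 changed by -1.76 ± 0.29 (adjusted p = 0.00496). Its adult against fetal change also differed between induced and native organoids (1.78 ± 0.41, adjusted p = 0.0369), as did that of Tarbp2, a Dicer partner (-1.21 ± 0.25, adjusted p = 0.0258). Dis3l2, the nuclease that degrades uridylated let-7 precursors, had levels of -0.97 to -0.25 in organoids and iHep samples and -1.97 and -1.86 in the 2 MEF samples.

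Of 21 further let-7 targets tested, 0 were called higher and 3 lower in iFIPC against FI, where 4.71% of all probes were lower, with a median change of -0.46 in the list and -0.10 over all probes tested. Arid3a (-1.67 ± 0.32, adjusted p = 0.00806), Mycn (-1.63 ± 0.37, adjusted p = 0.0143) and Myc (-1.04 ± 0.20, adjusted p = 0.00756), all transcription factors, were lower in iFIPC organoids. Myc stood at 2.65, 2.88 and 2.71 in iFIPC, against 3.96, 4.03 and 3.37 in FI, without overlap. In crypt against FI, 4 of the 21 were lower and 0 higher, where 4.78% of all probes were lower, with medians of -0.37 in the list and -0.0024 over all probes. These were Arid3a (-2.74 ± 0.32, adjusted p = 0.00105), Edn1 (-2.83 ± 0.82, adjusted p = 0.0490), Igf1r (-1.41 ± 0.39, adjusted p = 0.0406) and Cdk6 (-1.33 ± 0.25, adjusted p = 0.0088). The groups overlapped for Igf1r, at 0.31, -1.26 and -1.22 in crypt organoids, against 1.06, 0.88 and 0.14 in FI organoids. Crypt sample 1 (0.31) is the crypt array that shares the FI slide. Mycn alone was called in iISC against iFIPC, higher by 1.57 ± 0.37 (adjusted p = 0.0238), and 0 of the 21 were called in iISC against crypt. The difference between the induced and the native change was called higher for Myc (1.46 ± 0.28, adjusted p = 0.0206) and Arid3a (1.94 ± 0.46, adjusted p = 0.0385).

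The insulin-like growth factor pathway, which includes messages that Igf2bp proteins bind, held more calls in crypt against FI than in the other organoid comparisons, a difference in counts that was not tested. There 0 of 13 were higher and 5 lower, where 2.55% of all probes were higher and 4.78% lower. The binding protein Igfbp7 changed by -5.29 ± 1.29 (adjusted p = 0.0256), the adaptor Irs1 by -3.66 ± 0.41 (adjusted p = 0.000909) and the imprinted RNA H19 by -3.09 ± 0.71 (adjusted p = 0.0199). Igfbp5 was at least 6.76-fold lower (adjusted p = 0.0121), and the receptor Igf1r, whose samples overlapped, was named above. In iFIPC against FI, 2 of 13 were called, where 4.59% of all probes were higher and 4.71% lower. They were Igfbp3, higher by 4.72 ± 1.04 (adjusted p = 0.0133), and Igfbp2, lower (-3.27 ± 0.66, adjusted p = 0.00947). In iISC against iFIPC, 3 of 12 were lower, Igfbp3, Igfbp5 and Irs1, where 3.94% of all probes were lower. In iISC against crypt 1 of 11 was higher, Irs1 (3.01 ± 0.41, adjusted p = 0.00602), where 1.42% of all probes were higher. Igf2 itself was uneven in iISC organoids, at -1.32, -2.78 and 4.27. It had -0.74, -3.21 and -3.14 in crypt organoids, and 7.99 and 7.78 in the 2 MEF samples, so iISC sample 3 lay nearer to MEF than to its own group.

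**Figure D5:**
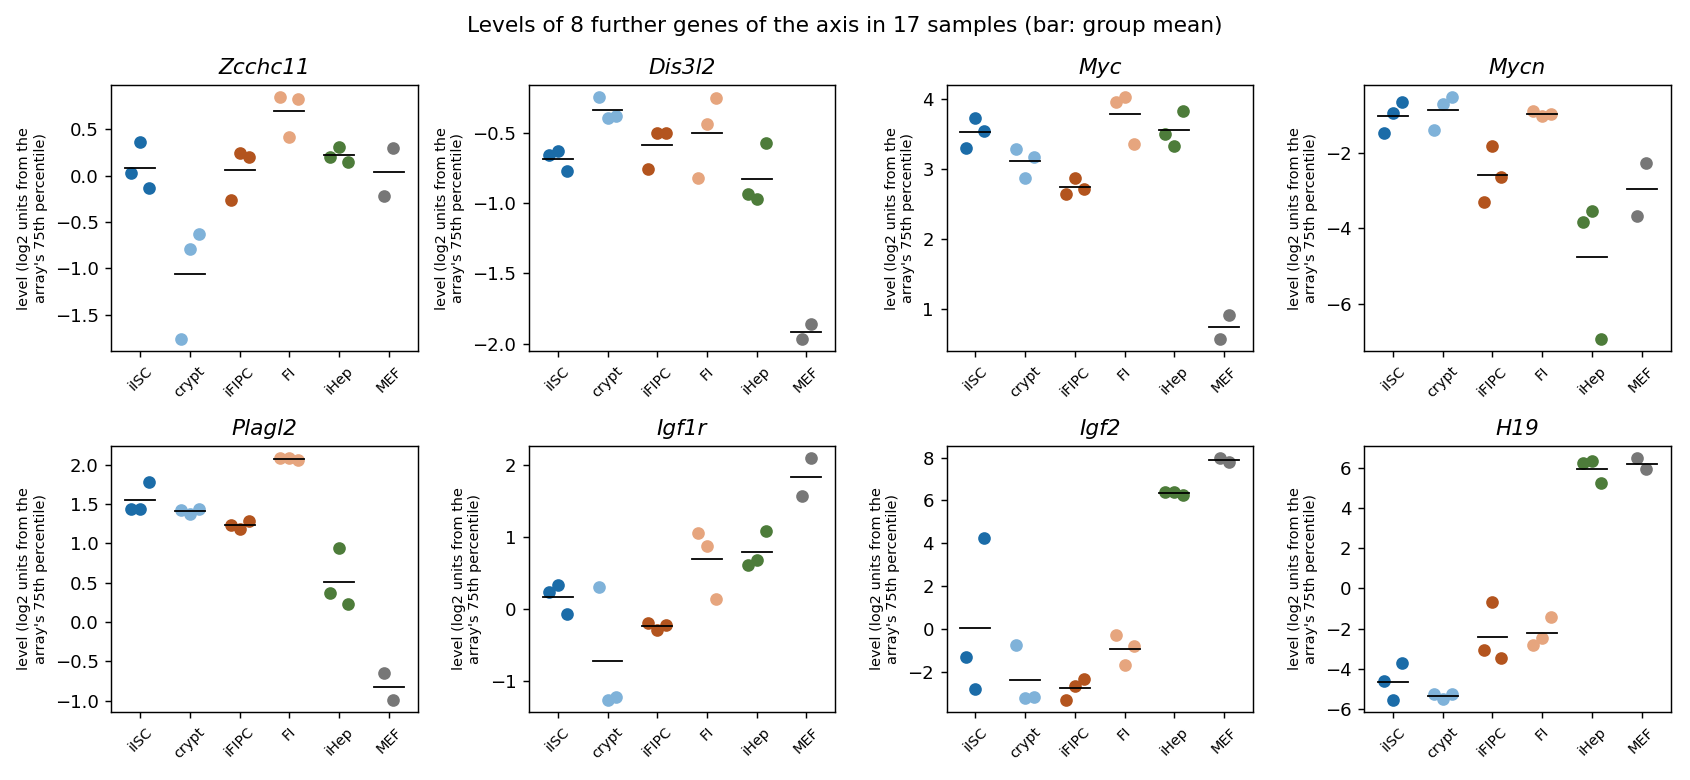
Levels of 8 further genes of the axis in 17 samples, with a panel per gene, the level in log2 units from the 75th percentile of the array on the y axis and the group on the x axis. Bars are group means. Zcchc11 is lowest in crypt, Myc and Mycn are lower in iFIPC than in FI, and 1 iISC sample stands apart in Igf2, at 4.27.

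Among other oncofetal genes, 4 of 7 were lower in crypt against FI and 0 higher, where 4.78% of all probes were lower. The median change was -3.09 in the list and -0.0024 over all probes tested. They were Dlk1 (-5.87 ± 1.03, adjusted p = 0.00644), Plagl1 (-3.92 ± 0.58, adjusted p = 0.00313), Gpc3 (-3.81 ± 0.75, adjusted p = 0.0107) and H19, which also counts in the insulin-like growth factor and Igf2bp-bound lists. In iFIPC against FI, 2 of 8 were lower, Gpc3 (-4.53 ± 0.76, adjusted p = 0.0046) and Afp (-3.03 ± 0.94, adjusted p = 0.0439), and 1 was higher, the imprinted Mest, by at least 3.48-fold (adjusted p = 0.00444). In that comparison 4.59% of all probes were higher and 4.71% lower. Afp was also lower in iISC against crypt (-5.47 ± 0.93, adjusted p = 0.0144), the 1 call of 7 there, and Plagl1 was the 1 call of 8 in iISC against iFIPC (-2.39 ± 0.58, adjusted p = 0.0276). Of all probes, 1.19% were lower in iISC against crypt and 3.94% in iISC against iFIPC. Of other transcripts known to be bound by Igf2bp proteins, 1 of 11 was higher in iFIPC against FI, where 4.59% of all probes were higher. It was Ptgs2, the prostaglandin synthase, by at least 9.98-fold (adjusted p = 0.000173). Myc, counted above among the let-7 targets, was lower, where 4.71% of all probes were lower. Ptgs2 was at least 5.61-fold lower in iISC against iFIPC (adjusted p = 0.000481), 1 of 10 there, where 3.94% of all probes were lower. H19 was the 1 call of 10 in crypt against FI, where 7.33% of all probes were called. In iISC against crypt 0 of 9 were called, where 2.61% of all probes were. Of 9 other high mobility group genes, 0 were called in each of the 4 organoid comparisons and in the difference between changes, where 2.61 to 9.3% of all probes were called, so a count of 0 among 9 is close to that background.

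Against the fibroblasts, all 6 lists held more calls, as did all probes (46.3% in iISC against MEF and 41.3% in iFIPC against MEF). Of the 19 let-7 processing genes, 6 were higher and 1 lower in iISC against MEF and 4 higher and 0 lower in iFIPC against MEF. Of the 21 let-7 targets, 7 were higher and 4 lower in iISC and 5 higher and 3 lower in iFIPC. Of 15 insulin-like growth factor pathway genes, 1 was higher and 12 lower in iISC and 0 higher and 12 lower in iFIPC. Of 10 Igf2bp-bound transcripts, 1 was higher and 5 lower in each, and of 9 other high mobility group genes, 3 were higher and 1 lower in each. Of 8 other oncofetal genes, 0 were higher and 6 lower in iISC and 1 higher and 6 lower in iFIPC.

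Hmga2, Igf2bp2 and Igf2bp3 were lower in iFIPC than in FI, of which Igf2bp2 alone was called with the slide as a term. That term depends on crypt sample 1, the only other array on the FI slide. The 250 bases before their starts are shown for the letters they share or not (RefSeq, GRCm38.p6, minus strand, 5′ to 3′). Capitals mark matches, on either strand, to the GC box GGGCGG, the TATA box TATAAA or the Myc E-box CACGTG. Of 32851 promoters of that length in the table, 32.7% hold the GC box, 12.4% the TATA box and 6.02% the E-box. The Hmga2 stretch holds 1 GC box, the Igf2bp2 stretch 2 GC boxes and the Igf2bp3 stretch 1 E-box. The matches do not overlap one another, and none of this says that a factor was bound.
Hmga2, chr10:120476470-120476719: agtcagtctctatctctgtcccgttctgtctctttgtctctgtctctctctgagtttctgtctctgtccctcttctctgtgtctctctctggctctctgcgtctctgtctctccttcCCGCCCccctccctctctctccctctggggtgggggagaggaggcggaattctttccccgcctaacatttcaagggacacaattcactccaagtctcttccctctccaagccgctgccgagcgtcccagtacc
Igf2bp2, chr16:22163300-22163549: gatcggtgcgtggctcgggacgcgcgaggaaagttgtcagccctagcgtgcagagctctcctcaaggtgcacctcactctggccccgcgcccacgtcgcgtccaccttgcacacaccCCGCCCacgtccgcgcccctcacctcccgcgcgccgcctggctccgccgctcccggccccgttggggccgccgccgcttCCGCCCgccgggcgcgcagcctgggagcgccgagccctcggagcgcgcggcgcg
Igf2bp3, chr6:49214955-49215204: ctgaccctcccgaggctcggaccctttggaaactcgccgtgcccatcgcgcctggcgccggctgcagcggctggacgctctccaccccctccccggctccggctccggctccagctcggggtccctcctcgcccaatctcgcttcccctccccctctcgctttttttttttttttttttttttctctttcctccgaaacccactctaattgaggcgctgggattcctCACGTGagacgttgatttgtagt

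The probes whose levels ran most like each gene over the 17 samples were looked up among 24272 probes, as a description of samples that share array sets and groups. They were Asnsd1 (r = 0.971), Ifi30 (r = 0.969) and Dach1 (r = 0.969) for Hmga1, and Nlgn2 (r = 0.954), Cdc16 (r = 0.948) and Tril (r = 0.947) for Hmga2. For Igf2bp1 they were Hyal1 (r = 0.980), Zfp52 (r = 0.975) and Ctsl (r = 0.966). The closest to Igf2bp2 were Armcx5 (r = 0.875), Cntd1 (r = 0.871) and Abhd14a (r = 0.866), and to Igf2bp3 Ccno (r = 0.906), Ddx4 (r = 0.886) and Nup188 (r = 0.881). No other member of the axis was among the 3 closest to any member.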

How the data were processed

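Cy3-labelled RNA of 18 samples was measured on Agilent one-colour arrays. The submitters' processing notes name Agilent Feature Extraction 9.5.1.1, while per the file headers version 10.7.1.1 was used on the organoid arrays. The deposited files give each spot's processed signal as an intensity on a linear scale, background-subtracted by the authors. The deposited flags, 0 or 1, are of another kind than a measurement and marked background, outliers and saturation. The authors' deposited series matrix is a linear signal with a median of 59.32 in every column and a rank correlation of 1 with the array values, so direction is known and centring is at that median; it served as an alternative.

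Outlier spots (62 to 107 per array) were left out, spots of a probe averaged, and log2 signals set relative to the 75th percentile of their array. Saturation touched at most 4 probes per array, and 65 probes without a value on some array were dropped. Probes were named by RefSeq accession (24806), symbol (6035) or synonym (1832), and 8436 stayed unnamed. MEF arrays 2 and 3 had a spread of log2 differences of 0.073, against 0.197 to 0.536 in the other 17 within-group pairs and a single-spot noise of 0.086, although their repeat probes still differed by a chi-square of 11.6 per probe (108.14 or more in the others). Both arrays were therefore averaged.

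limma 3.58.1 in R 4.3.3 (lmFit, contrasts, eBayes, two-sided) was run on probes that exceeded background clearly on all arrays of 1 or more of the groups compared. Comparisons among organoids came from a fit of 12 samples and those with MEF or iHep from a fit of 17, with Benjamini-Hochberg adjustment over all probes tested. The script was tested on simulated data. A gene was represented by its probe with the highest mean level. Where no array of the dimmer group was well above background, a bound is given. The adjusted p beside it is that of the fitted change, which used the signal at background. The number of arrays limits the precision. Text names the 7 genes, anchors of the axis, called members of 6 related lists and the 3 probes most like each member. The members and lists were chosen with earlier results of these data known. The alternatives were another background correction and normalization, the series matrix, no filter, 1 probe per gene, slide, replicate number, fits of only the groups compared, 18 separate arrays and leaving out each sample.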

Additional observations from a re-analysis of the deposited data

Results flagged for a closer look

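Hmga2 differed between the induced and the native organoids in its adult against fetal change, by 2.35 log2 units (adjusted p = 0.0141 in limma). The change was 0.62 in iISC against iFIPC and -1.73 in crypt against FI. Igf2bp2 differed in the same contrast by 1.68 log2 units (adjusted p = 0.0153 in limma), with 1.26 in iISC against iFIPC and -0.42 in crypt against FI. Each difference is also the iISC against crypt change (0.02 for Hmga2 and -0.05 for Igf2bp2) minus the iFIPC against FI change (-2.33 and -1.73). They are thus not separate from those comparisons. With the slide as a term, the differences were 1.36 (adjusted p = 0.220) for Hmga2 and 0.91 (adjusted p = 0.202) for Igf2bp2.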

How the results depend on the processing

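Most results kept their direction and side of the threshold under the alternatives, and the slide was the choice that ended most calls. With the slide as a term, probes called were 40 in iISC against crypt (641 without it), 154 in iFIPC against FI (2435), 450 in crypt against FI (1902), 415 in iISC against iFIPC (1620) and 69 in the difference between changes (1209). Members called were then 1 in iFIPC against FI, 0 in crypt against FI, 0 in iISC against iFIPC, 0 in the difference between changes and 2 in iHep against MEF. Higher calls made up 57.1%, 32.7%, 21.2% and 36.2% of those in iFIPC against FI, crypt against FI, iISC against iFIPC and the difference between changes, against 49.4%, 34.8%, 40.5% and 60.4% without the slide, and 42.5% in iISC against crypt (54.3%). The slide could not be fitted where MEF or iHep were set against organoids. It turned Hmga2 in iISC against crypt to -0.62 and Igf2bp3 in the difference between changes to -0.65, neither called. Normexp with quantile normalization gave 413 probes in iISC against crypt, 1372 in iFIPC against FI (61.4% higher), 1043 in crypt against FI (47.5% higher, 1 member called) and 1070 in iISC against iFIPC, and turned Igf2bp1 in the difference between changes to -0.73. With only the groups compared in the fit, 415 probes were called in iISC against crypt and 905 in iISC against iFIPC, with 1 member called in the second. No filter on dim probes gave 632 in the difference between changes, and 1 probe per gene name gave 4657 in iHep against MEF (7017). The cause of these shifts was not tested. A slide term leaves fewer residual degrees of freedom, and the slides partly coincide with the groups. Crypt sample 1 alone links the FI slide to the other organoid slides, and iFIPC sample 2 alone links the iISC slide. With 1 probe per gene name, fewer probes are tested.

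The replicate numbers did not pair the samples, since same-numbered samples had correlations of deviations of -0.31 to 0.26. With the replicate number as a block, 788 probes were called in the difference between changes and 2 members in iHep against MEF (Hmga1 added, adjusted p = 0.000547). Leaving out 1 sample at a time gave 223 (without crypt sample 3) to 1504 (without iISC sample 1) probes in iISC against crypt, where 0 to 1 members were called (Igf2bp3, without iISC sample 3). It gave 1367 (without FI sample 2) to 2603 in iFIPC against FI, 1065 (without crypt sample 2) to 2700 in crypt against FI, 1034 (without iISC sample 2) to 1689 in iISC against iFIPC, and 403 (without crypt sample 3) to 2573 (without crypt sample 1) in the difference between changes. In iHep against MEF, 1 to 2 members were called, with Hmga1 added without iHep sample 3. The sign turned for Hmga2 (-0.15 to 0.23) and Igf2bp2 (-0.13 to 0.11) in iISC against crypt and for Igf2bp1 in the difference between changes (-0.78 to 1.1), whose fitted values rest on background. None of the values that turned sign was called.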
